A study of Homo sapiens with 4 samples.

Results

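The lysyl oxidase family comprises the 5 human genes LOX, LOXL1, LOXL2, LOXL3 and LOXL4. They were taken as the rows of the gene count table whose Ensembl identifiers belong to these genes, and all 5 were found among the 58735 genes listed. Lysyl oxidases are copper-dependent amine oxidases, secreted by cells, that oxidize lysine residues of collagens and elastin. The aldehydes they make form the cross-links that give collagen fibrils and elastic fibers their strength. LOX and LOXL1 are made as proenzymes whose propeptide is removed by BMP1 and related proteases, whereas LOXL2, LOXL3 and LOXL4 carry scavenger receptor cysteine-rich domains before the same catalytic domain. In breast cancer the family is known for stiffening the matrix around tumor cells, and LOX, LOXL2 and LOXL4 are known as hypoxia-inducible genes.

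RNA was sequenced from 2 established human lines of triple-negative breast cancer (TNBC), which lacks the estrogen, progesterone and HER2 receptors. MDA-MB-231 and SUM159 cultures each received 1 µM mebendazole (MBZ), an anthelmintic drug that binds tubulin, or DMSO as the vehicle for 72 h, and each of these 4 groups gave 1 library. MDA-MB-231 cells came from the ATCC and were kept in DMEM, while SUM159 cells were a gift of another laboratory and were kept in Ham's F12 with insulin and hydrocortisone, so line and medium cannot be told apart. The comparison asked which genes MBZ altered in TNBC cells.

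The libraries held between 17143139 and 24897586 counted reads, so that 3 counts stood for 0.120 to 0.175 CPM (counts scaled to a common library size). Markers of triple-negative lines were read in each library. They were not chosen to tell MDA-MB-231 from SUM159, so they do not check which line is which. VIM (20703 to 54409 counts) and CD44 (7435 to 20239 counts) were abundant in all 4 libraries, PGR had 0 counts in each, and ESR1 had at most 18. CDH1 had 11 and 12 counts in MDA-MB-231 and 0 in SUM159, and ERBB2 had between 1216 and 1996 counts. CLDN4 was not low in MDA-MB-231, with 3415 counts in the DMSO library and 2428 in the MBZ library.

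Within a line, levels are CPM after TMM scaling, which sets library sizes so that most genes are level, over the 2 libraries of that line. Changes are log2 fold changes of MBZ over DMSO, with the 95% Clopper-Pearson interval that the 2 read counts allow. These intervals cover counting error only and compare libraries, not conditions. With 1 library in each group there was no replicate error and no test within a line, and the difference between the lines' changes was not tested. A gene was counted as higher or lower when it had a mean of at least 10 counts over both libraries of the line and differed at least 1.5-fold. Since bulk RNA was sequenced, fewer expressing cells and less RNA per cell cannot be told apart.

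The window of 250 bases before the start was held for 4 of the 5 members (all but LOXL2) in the RefSeq promoter table (GRCh38.p14) and was searched on both strands for the core of the hypoxia response element, ACGTG or GCGTG. Of the 4 searched, LOX was the member with matches, 4 of them to ACGTG, and these are shown because LOX was the member whose changes lay on opposite sides of 0 between lines. The stretches read 5′ to 3′ on the minus strand, with ACGTG or its reverse complement in capitals.
LOX, chr5:122078427-122078456: gctccctgtgcaACGTGtctggggggagga
LOX, chr5:122078349-122078378: ttgCACGTttccaatcgcattACGTGaaca
LOX, chr5:122078284-122078313: gtaactttgcaaACGTGccagaaagtttaa
Of 35116 windows of the same length, 18.5% held ACGTG, 32.2% held GCGTG and 0.669% held ACGTG 4 or more times. LOXL1, LOXL3 and LOXL4 had neither core in the window. Of these windows, 154 bases of LOX, 19 of LOXL3 and all 250 of LOXL1 lie in exons of another transcript of the gene. The windows also differed in base composition, with a G and C content of 55.2% for LOX, 66.8% for LOXL1, 64.4% for LOXL3 and 86.4% for LOXL4. The LOXL4 window is shown because LOXL4 was the member with many reads in one line and hardly any in the other. Its capitals mark 6 matches to the Sp1 GC box GGGCGG on either strand, a motif that 42.6% of all windows held at least once.
LOXL4, chr10:98268195-98268444, minus strand: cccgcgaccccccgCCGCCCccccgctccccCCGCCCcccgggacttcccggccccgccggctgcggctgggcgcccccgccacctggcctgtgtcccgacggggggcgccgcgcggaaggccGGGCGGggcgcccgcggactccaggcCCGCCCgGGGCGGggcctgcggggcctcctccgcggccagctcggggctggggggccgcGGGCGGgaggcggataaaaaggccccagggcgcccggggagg
The other motifs searched had few matches. LOX held 1 match to the SMAD motif CAGACA (in 13.6% of all windows), 1 to the CCAAT box (in 32.0%) and 1 to the GC box. LOXL1 and LOXL4 each held 1 match to the E-box CANNTG (in 61.8%). The AP-1 motif TGANTCA (in 6.57%) and the TATA box motif TATAAA (in 10.7%) were found in none of the 4 windows. A match describes the sequence and not binding.

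The genes lie on 5 chromosomes of GRCh38 (GENCODE release 44). LOX (ENSG00000113083) spans chr5:122063195-122078413 on the minus strand and has 7 exons, and LOXL1 (ENSG00000129038) spans chr15:73925989-73952137 on the plus strand, also with 7 exons. LOXL2 (ENSG00000134013) spans chr8:23296897-23425328 with 14 exons, LOXL3 (ENSG00000115318) chr2:74532258-74555690 with 14 exons and LOXL4 (ENSG00000138131) chr10:98247690-98268194 with 15 exons, all on the minus strand. Exons of every member overlap exons of a gene on the opposite strand, by 138 bases with SRFBP1 for LOX, 335 with LOXL1-AS1 for LOXL1, 178 with LOXL2-AS1 for LOXL2 and 152 with ENSG00000230928 for LOXL4. LOXL3 shared the most, with 936 exonic bases under HTRA2 and 216 under DOK1. LOXL2 also shares 120 exonic bases with ENTPD4 on its own strand. Whether reads were counted by strand is not given in the sources used here. Reads from these overlaps may therefore have been left out of the counts of a member.

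LOXL1, which is known for cross-linking elastin, was the only member at least 1.5-fold lower after MBZ in both lines. It had 483 counts (21.3 CPM) in the DMSO library of MDA-MB-231 and 80 counts (4.26 CPM) in the MBZ library. In SUM159 it had 4308 counts (256 CPM) with DMSO and 1154 counts (55.0 CPM) with MBZ. LOXL1 was thus 4.99-fold lower with MBZ in MDA-MB-231 (log2 fold change -2.32, interval -2.68 to -1.98) and 4.65-fold lower in SUM159 (-2.22, interval -2.31 to -2.12). The 2 intervals overlap, although the gene started from a level far higher in SUM159 than in MDA-MB-231. Among the 13733 genes measured in both lines, 4.71% were at least 1.5-fold lower in both. Of the 4 members measured in both, 0 were 1.5-fold higher in both or called in opposite directions, as 6.12% and 6.04% of those genes were. The paper picked LOXL1 from this RNA sequencing as a candidate driver of metastasis. By RT-qPCR after 72 h, it reported ITGβ4 as the only candidate lower in both lines, so LOXL1 was not.

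LOX, the founding member and the classical collagen cross-linker, was on opposite sides of 0 in the 2 lines. In MDA-MB-231 it had 1219 counts (53.7 CPM) with DMSO and 1311 counts (69.7 CPM) with MBZ, a log2 fold change of 0.38 (interval 0.26 to 0.49). In SUM159 it had 218 counts (12.9 CPM) with DMSO and 159 counts (7.58 CPM) with MBZ, which was 1.71-fold lower (log2 fold change -0.77, interval -1.08 to -0.47). LOX was therefore highest in the MBZ library of MDA-MB-231 and lowest in the MBZ library of SUM159. Of the genes measured in both lines, 20.0% had intervals on opposite sides of 0 in this way.

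LOXL2, an enzyme known for acting on collagen IV and for a role in epithelial-to-mesenchymal transition, was the member with the most reads in every library. It had 6532 counts (288 CPM) in MDA-MB-231 with DMSO and 3235 counts (172 CPM) with MBZ. This was 1.67-fold lower with MBZ, a log2 fold change of -0.74 (interval -0.80 to -0.68). In SUM159 LOXL2 had 4797 counts (285 CPM) with DMSO and 4432 counts (211 CPM) with MBZ, which was 1.35-fold lower (log2 fold change -0.43, interval -0.49 to -0.37) and so under the fold required for a call. LOXL2 was lower with MBZ in both lines, and the intervals of the lines did not overlap.

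LOXL3, which takes part in palate and spine development, was the scarcest member in MDA-MB-231. It had 28 counts (1.23 CPM) in MDA-MB-231 with DMSO and 35 counts (1.86 CPM) with MBZ, a log2 fold change of 0.59 whose interval of -0.16 to 1.37 spanned 0. In SUM159 it had 60 counts (3.56 CPM) with DMSO and 106 counts (5.05 CPM) with MBZ, a log2 fold change of 0.50 (interval 0.03 to 0.99). LOXL3 had the widest intervals of the 4 members measured in both lines, and the call at 1.5-fold in MDA-MB-231 was not resolved at this depth.

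LOXL4, a member of the LOXL2 and LOXL3 subgroup, had a higher level with MBZ. In MDA-MB-231 it had 500 counts (22.0 CPM) with DMSO and 1112 counts (59.2 CPM) with MBZ, which was 2.69-fold higher (log2 fold change 1.43, interval 1.27 to 1.58). In SUM159 it had 0 counts with DMSO and 11 counts (0.524 CPM) with MBZ, 2.94-fold higher with the DMSO library set at a floor of 3 counts. The counting interval of this change began at 2.02-fold (log2 fold change 1.01). Only the change in MDA-MB-231 passed the count filter, since the mean of 5.5 counts in SUM159 was under it. Of the genes compared in MDA-MB-231, LOXL4 stood at percentile 95.1 from the lowest change.

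**Figure D1:**
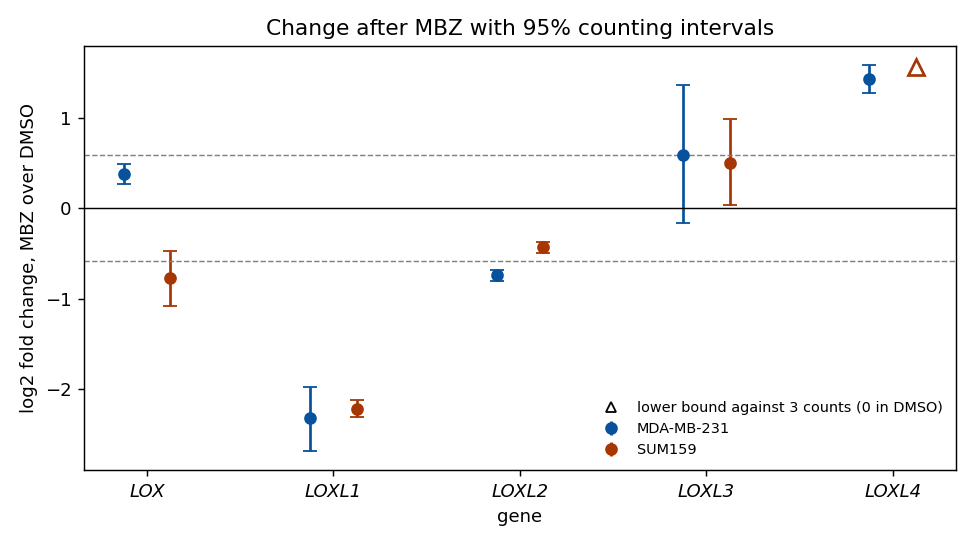
Log2 fold change of MBZ over DMSO (y axis) of the 5 lysyl oxidase genes (x axis) in MDA-MB-231 (blue) and SUM159 (brown) cells, with bars for the 95% counting interval and dashed lines at a 1.5-fold difference. LOXL1 lies at -2.32 and -2.22, LOX at 0.38 and -0.77, and the open triangle is the bound for LOXL4 in SUM159.

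In MDA-MB-231, 2 of the 5 members were lower (LOXL1 and LOXL2) and 2 were higher (LOXL3 and LOXL4), where 15.8% of the 15142 genes compared were lower, 18.3% higher and 34.0% either. In SUM159, 2 members were lower (LOX and LOXL1) and 0 were higher among the 4 that passed the filter, where 21.7% of 15674 genes were lower, 21.5% higher and 43.2% either. The whole counting interval lay past 1.5-fold for 3 members in the first line (LOXL1, LOXL2 and LOXL4), as for 15.7% of its genes, and for LOXL1 alone in the second, as for 23.7%. The median log2 fold change of the members was 0.38 in MDA-MB-231 and -0.60 over the 4 in SUM159, beside -0.02 and -0.03 over all genes. Scaling by total counts alone moved this median over all genes up by 0.27 in MDA-MB-231 and by 0.30 in SUM159. It left the 9 measured changes of members on their sides of 0, but LOXL2 in MDA-MB-231 (-0.48) and LOX in SUM159 (-0.47) no longer passed 1.5-fold, while LOX in MDA-MB-231 (0.64) and LOXL3 in SUM159 (0.80) did. It moved the share of higher genes among all called genes from 53.7% to 79.4% in MDA-MB-231 and from 49.8% to 71.9% in SUM159. The plot of log2 fold changes shows LOXL1 as the member that lay farthest below 0 in both lines.

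A shared change was tested with edgeR's quasi-likelihood test over the 4 libraries, with line and treatment in the model, so that the lines stand in for replicates and the spread is their difference in response. None of the 5 members passed an adjusted p of 0.05, as 0.00621% of the 16100 genes tested did. An unadjusted p under 0.05 was found for 2 members (LOXL1 and LOXL4) and for 7.14% of all genes tested. For LOXL1, lower in 2 of 2 lines, the shared log2 fold change was -2.23 ± 0.29 (SE), with an adjusted p of 0.294 by edgeR's quasi-likelihood test. DESeq2's Wald test, run as an alternative, called 1 member, LOXL1, with an adjusted p of 1.87e-06 (among 100 genes called of 14920), whereas edgeR's adjusted p was 0.108 with RLE scaling. For LOXL4, higher in 2 of 2 lines, the edgeR estimate was 1.87 ± 0.61 (SE), with an adjusted p of 0.609. In edgeR with every gene that had at least 1 count, which called 298 of 32295 genes, both LOXL1 (adjusted p 8.44e-07) and LOXL4 (adjusted p 0.0185) were called. The estimates were -0.55 ± 0.31 (SE) for LOXL2, with an edgeR adjusted p of 0.751, and 0.58 ± 0.57 (SE) for LOXL3, with an adjusted p of 0.855. For LOX, higher in 1 line and lower in the other, it was -0.14 ± 0.36 (SE), with an edgeR adjusted p of 0.951.

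The lines differed in the family before treatment. For this the DMSO libraries were compared after TMM scaling over all 4 libraries, again without a test, and 4 of the 5 members were at least 1.5-fold apart, as were 61.6% of 15559 genes (31.0% higher in SUM159 and 30.6% higher in MDA-MB-231). LOXL1 stood at 20.8 CPM in MDA-MB-231 and 260.1 CPM in SUM159, 12.5-fold higher in SUM159 (log2 difference 3.65, interval 3.51 to 3.78). LOX went the other way, with 52.4 CPM in MDA-MB-231 and 13.2 CPM in SUM159, 3.98-fold higher in MDA-MB-231. LOXL2 differed least, at 281 CPM in MDA-MB-231 and 289.6 CPM in SUM159 (log2 difference 0.04, interval -0.01 to 0.10). LOXL3 was 3.0-fold higher in SUM159 (log2 difference 1.58, interval 0.92 to 2.29). LOXL4, with 500 counts in MDA-MB-231 and 0 in SUM159, was 119-fold higher in MDA-MB-231 with SUM159 set at a floor of 3 counts. Its counting interval for the log2 difference, SUM159 minus MDA-MB-231, reached up to -6.59. This comparison shares its libraries with those of MBZ and DMSO.

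Levels of different genes were compared per length only, as RPKM, reads scaled by the kilobases of merged exon of a gene and by library size, after TMM scaling over the 4 libraries. In MDA-MB-231 with DMSO the order was LOXL2 (47.0 RPKM), LOX (9.37), LOXL4 (5.98), LOXL1 (5.71) and LOXL3 (0.267). With MBZ the order in this line was LOXL2 (28.4 RPKM), LOXL4 (16.3), LOX (12.3), LOXL1 (1.16) and LOXL3 (0.407). LOXL4 thus stood above LOX in MDA-MB-231 with MBZ and below it with DMSO, and LOXL1 stood next to LOXL4 with DMSO and far below it with MBZ. Without replicates, neighbors in this order as close as LOXL4 and LOXL1 with DMSO or LOXL4 and LOX with MBZ cannot be separated.

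In SUM159 with DMSO, LOXL1 led with 71.5 RPKM, ahead of LOXL2 (48.4), LOX (2.35), LOXL3 (0.802) and LOXL4 (0). With MBZ, LOXL2 led with 35.9 RPKM, ahead of LOXL1 (15.4), LOX (1.38), LOXL3 (1.14) and LOXL4 (0.148). LOXL2 was therefore the leading member in 3 of 4 libraries, and LOXL1 in the DMSO library of SUM159. The leading member of each library stood between percentile 92.9 and 97.4 of the 19831 protein-coding genes by RPKM, and LOXL3 between percentile 40.9 and 49.6.

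**Figure D2:**
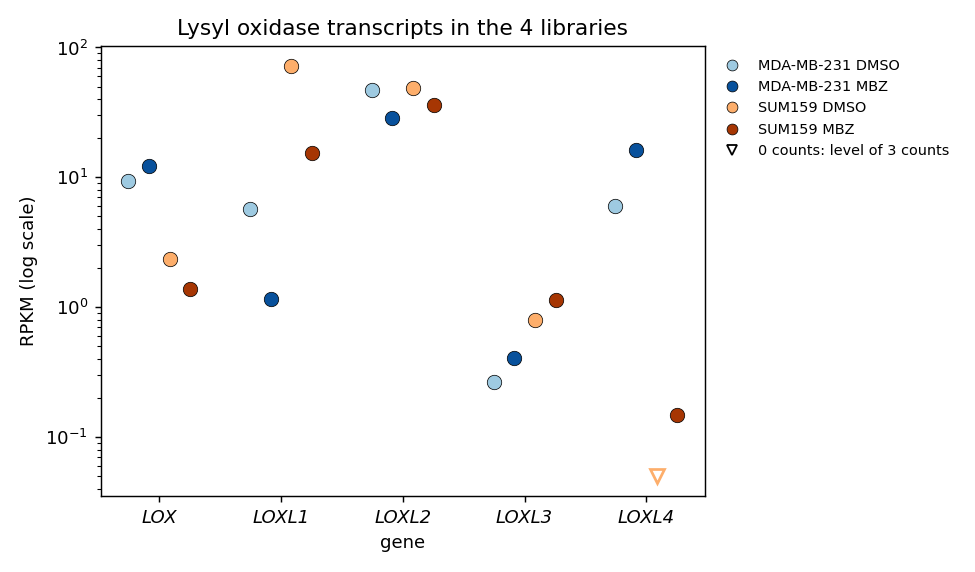
Level of each lysyl oxidase gene (x axis) in the 4 libraries, as RPKM on a log axis (y axis), 1 point for each library. LOXL2 lies between 28.4 and 48.4 RPKM in all 4 libraries, LOXL1 between 1.16 and 71.5, and the open triangle marks LOXL4 at 0 counts in SUM159 with DMSO, drawn at the level of 3 counts.

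The plot of levels by library shows that LOXL2 varied least and LOXL1 and LOXL4 most across the 4 libraries. Summed over the family, the level was 68.3 RPKM in MDA-MB-231 with DMSO and 58.6 RPKM with MBZ, or 85.8% of the DMSO level, which became 102% with scaling by total counts. In SUM159 the sum was 123 RPKM with DMSO and 54.0 RPKM with MBZ, or 43.8% of the DMSO level, and 54.0% with scaling by total counts.

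The makeup of the sum also differed with MBZ. LOXL2 made up 68.8% of it in MDA-MB-231 with DMSO and 48.5% with MBZ, while the share of LOXL4 was 8.76% with DMSO and 27.8% with MBZ, and that of LOXL1 8.37% and 1.98%. In SUM159 LOXL1 made up 58.1% with DMSO and 28.5% with MBZ, and LOXL2 39.3% and 66.5%. In the stacked plot, the lower total of SUM159 with MBZ is mostly the smaller LOXL1 segment.

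**Figure D3:**
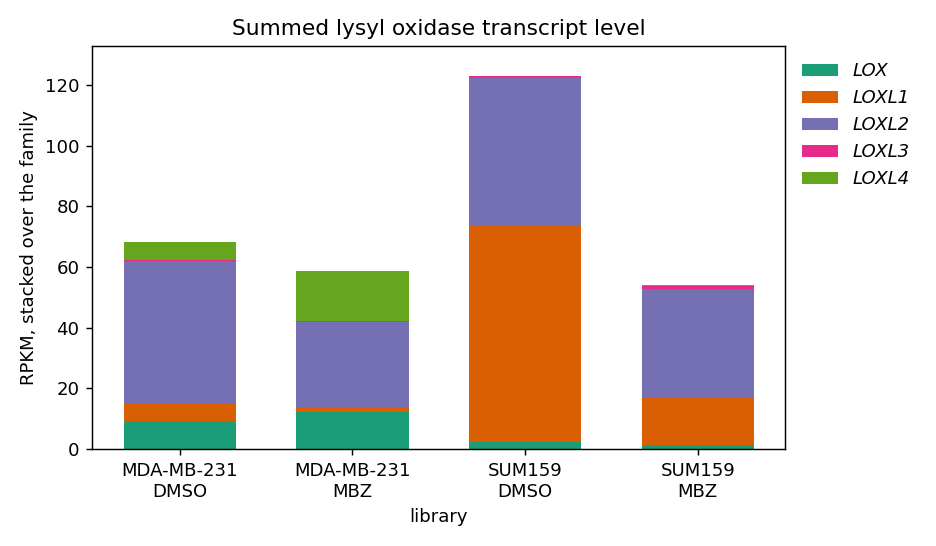
Summed level of the lysyl oxidase family (y axis, RPKM) in the 4 libraries (x axis), stacked by gene. The sum is 68.3 and 58.6 RPKM in MDA-MB-231 with DMSO and MBZ, and 123 and 54.0 RPKM in SUM159, where the LOXL1 segment is 71.5 RPKM with DMSO and 15.4 RPKM with MBZ.

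Genes that overlap the members were read beside them. LOXL1-AS1, the antisense RNA gene of LOXL1, had 222 counts with DMSO and 129 after MBZ in MDA-MB-231 (log2 fold change -0.51, interval -0.84 to -0.19). In SUM159 it had 316 and 382 counts, a log2 fold change of -0.04 (interval -0.26 to 0.18) that became 0.26 with scaling by total counts. The differences of LOXL1-AS1 were thus smaller than those of LOXL1 in both lines. LOXL2-AS1 had 50 counts with DMSO and 13 after MBZ in MDA-MB-231 (-1.66) and 53 and 107 counts in SUM159 (0.70). It lay on the same side of 0 as LOXL2 in MDA-MB-231 and on the other side in SUM159.

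SRFBP1, which overlaps LOX, had a log2 fold change of 0.58 for MDA-MB-231 and 0.70 for SUM159, so it lay on the other side of 0 from LOX in SUM159. The genes overlapping LOXL3 stood at 0.43 and 0.26 for HTRA2, a mitochondrial protease, and at -0.35 and -0.57 for DOK1, an adaptor of receptor kinases. Of the 10 nearest coding genes on either side that share no exon with a member, ZNF474, FTMT, TBC1D21 and M1AP did not pass the count filter. STOML1 beside LOXL1 stood at -0.38 in MDA-MB-231 and 1.07 in SUM159. R3HCC1, which lies 617 bases from LOXL2, stood at -0.50 and 0.26, and SLC25A37, the mitochondrial iron importer gene on its other side at 103627 bases, at -0.78 and 0.55. These 3 neighbors lay on the same side of 0 as the member in MDA-MB-231 and on the other side in SUM159. AUP1 beside LOXL3 stood at -0.19 in MDA-MB-231 and near 0 in SUM159 (0.07 and 0.30 with scaling by total counts). Beside LOXL4, R3HCC1L stood at 0.44 and 0.18, and PYROXD2 at -0.21 (0.06 with scaling by total counts) and -1.13.

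The genes whose level pattern over the 4 libraries was nearest to that of each member were ranked by the distance between centered log2 CPM values, among those with mean counts of 100 or more. For LOXL1 they were TGFBI, a TGF-β-induced matrix protein, at a distance of 0.346 log2 units, PCDHGC3 at 0.542 and ACTA2, the smooth muscle actin, at 0.718. TGFBI stood at log2 fold changes of -1.82 (MDA-MB-231) and -2.15 (SUM159), PCDHGC3 -1.84 and -1.72, and ACTA2 -1.71 and -2.47. PCDHGC3 shares exons with the other genes of the protocadherin gamma cluster, so its counts are uncertain.

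For LOXL2 the nearest were CDK4, the G1 cyclin-dependent kinase, at 0.0397 log2 units, CLIP2 at 0.0436 and UNC45A at 0.0447. For LOX they were CSF2RA at 0.213, PLCL2 at 0.287 and MEST at 0.295, and for LOXL3 ARID3A at 0.0888, USP31 at 0.143 and C10orf95-AS1 at 0.153. For LOXL4, which had 0 counts in SUM159 with DMSO, the distances depend on the value set for that library by the prior count of 2, so its nearest genes are not given.

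The genes that process prolysyl oxidases or bind them in the matrix were taken as a list of 8. In SUM159, all 6 measured were lower with MBZ (median -2.54), and in MDA-MB-231 2 were lower and 1 higher of 5 measured (median 0.04, with 1 lower and 1 higher by total counts). BMP1, the protease that cleaves the LOX propeptide, was lower in both lines, with 1424 counts with DMSO and 718 after MBZ in MDA-MB-231 (-0.72), and 2311 and 1381 counts in SUM159 (-1.06). FN1, fibronectin, which binds LOX, had 24016 and 9078 counts in MDA-MB-231 (-1.13) and 98237 and 16694 counts in SUM159 (-2.87). TLL1, a protease of the BMP1 group, was at 407 counts with DMSO and 56 with MBZ in SUM159 (-3.17), and its relative TLL2 at 7 and 29 in MDA-MB-231 (2.30). PCOLCE, an enhancer of procollagen cleavage, had 4111 and 533 counts in SUM159 (-3.26), while in MDA-MB-231 it had 95 and 81 counts (0.04, and -0.01 with DESeq2 size factors). The procollagen N-proteinases ADAMTS2 and ADAMTS14 stood at -2.22 and -1.73 in SUM159.

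Of the substrates, 7 of 9 measured fibrillar and network collagen genes were lower and 1 higher in SUM159 (median -1.01), while 3 were lower and 3 higher of 8 in MDA-MB-231 (median -0.08, or 0.19 with scaling by total counts). COL1A1, COL4A1 and COL4A2, the last 2 chains of the basement membrane collagen that LOXL2 acts on, were lower in both lines, at -0.87, -0.88 and -0.87 in MDA-MB-231 and at -1.51, -0.94 and -1.16 in SUM159. COL3A1 was lowest in SUM159, with 303 counts with DMSO and 33 with MBZ (-3.51). The highest were COL5A3 in SUM159 (22 and 51 counts, 0.89) and COL1A2 in MDA-MB-231 (13 and 30 counts, 1.47).

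The elastic fiber genes, substrates and partners of LOXL1, were lower for 6 and higher for 2 of 8 measured in SUM159 (median -1.60), and lower for 4 and higher for 1 of 10 in MDA-MB-231 (median 0.15). With scaling by total counts the balance in MDA-MB-231 turned to 3 lower and 5 higher (median 0.42). FBLN5, which tethers LOXL1 to elastic fibers, had 35 counts with DMSO and 14 after MBZ in MDA-MB-231 (-1.04), and 515 and 89 counts in SUM159 (-2.85). LTBP4 was lower in both lines as well (-0.65 and -1.50). ELN itself, the gene of elastin, had between 2 and 10 counts in the 4 libraries and was not measured. MFAP2 was lowest in MDA-MB-231, with 490 and 98 counts (-2.05), and FBN2 highest, with 2 and 112 counts (5.99, interval 4.19 to 9.14). EFEMP2, the fibulin that binds LOX, was the highest in SUM159, with 52 and 177 counts (1.45).

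Among the other enzymes and chaperones that modify collagen, 7 of 16 measured were lower in MDA-MB-231 (median -0.43) and 5 of 17 in SUM159 (median -0.35), with 0 higher in either line. With scaling by total counts, 3 were lower in each line, at medians of -0.17 and -0.05, and 1 was higher in MDA-MB-231. P3H3, of the prolyl 3-hydroxylase family, was lower in both lines (-1.95 and -0.69), as was CRTAP, a cofactor of prolyl 3-hydroxylation (-0.64 and -1.39). PLOD2, the lysyl hydroxylase of collagen telopeptides, lay on the same sides of 0 as LOX, with 1953 and 2300 counts in MDA-MB-231 (0.51) and 1188 and 860 counts in SUM159 (-0.78). Lysyl oxidases need copper, and of 8 copper transport and delivery genes 1 was higher and 0 lower in MDA-MB-231 (median 0.14), and 2 were higher and 2 lower in SUM159 (median 0.06, with 3 higher and 1 lower by total counts). ATP7A, the transporter that loads copper into secreted enzymes, stood at 0.19 in MDA-MB-231 (interval -0.01 to 0.38) and -0.83 in SUM159. SLC31A2 was higher in both (1.31, and 0.85 with an interval of -0.18 to 1.97). COX17 stood at 0.13 (interval -0.04 to 0.31) and 1.06, and STEAP3, the lowest of the list in both lines, at -0.35 and -1.53.

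**Figure D4:**
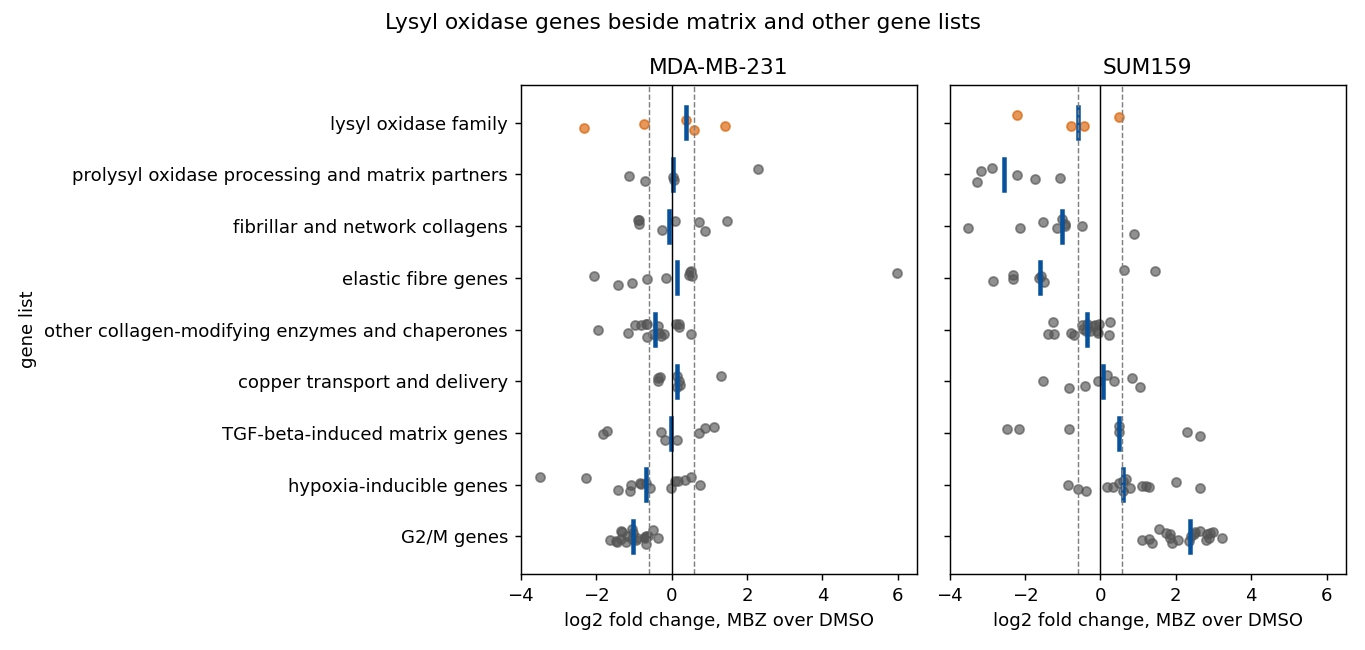
Log2 fold change of MBZ over DMSO (x axis) for each measured gene (point) of the lysyl oxidase family (orange) and 8 other lists (y axis) in MDA-MB-231 and SUM159, with the median as a blue bar and dashed lines at a 1.5-fold difference. The medians in SUM159 are -2.54 for processing genes, -1.01 for collagens and -1.60 for elastic fiber genes, while G2/M genes have medians of -1.03 in MDA-MB-231 and 2.38 in SUM159.

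The plot of changes by list shows the processing, collagen and elastic fiber genes mostly to the left of 0 in SUM159 and on both sides of it in MDA-MB-231. None of the listed genes passed edgeR's shared test at an adjusted p of 0.05, although 5 of 7 tested processing genes, 4 of 9 collagens and 2 of 10 elastic fiber genes had an unadjusted p under 0.05, as had 7.14% of all genes tested. DESeq2's Wald test called FN1 among the processing genes and 0 collagens or elastic fiber genes, with 5 of 9 and 3 of 11 at an unadjusted p under 0.05. In edgeR with every gene that had at least 1 count (298 of 32295 genes called), 4 of 8 processing genes (FN1, TLL1, ADAMTS2 and PCOLCE), COL3A1 among 13 collagens and FBLN5 among 13 elastic fiber genes were called.

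Genes tied to members by shared induction or by reported interaction were read from 3 lists. Of 15 hypoxia-inducible genes, 8 were lower and 1 higher in MDA-MB-231 (median -0.69), and 2 were lower and 9 higher in SUM159 (median 0.61), so that LOX lay on the other side of 0 from the list's median in both lines, and LOXL2 and LOXL4 in 1 line each. With scaling by total counts the medians were -0.42 (5 lower and 3 higher) and 0.91 (0 lower and 11 higher). CA9, the carbonic anhydrase used as a hypoxia marker, had 42 counts with DMSO and 3 after MBZ in MDA-MB-231 (-3.49, interval -5.87 to -1.89), and 27 and 135 counts in SUM159 (2.0). VEGFA was higher in both lines (0.75 and 1.20), CA12 (-2.26 and -0.85) and EGLN3 (-0.69 and -0.59) were lower in both, and ANGPTL4 stood at -0.83 and 2.63.

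The TGF-β-induced matrix genes were split within each line. Of 8 measured in MDA-MB-231 3 were higher and 2 lower (median -0.01, or 0.26 with scaling by total counts), and of 7 in SUM159 2 were higher and 3 lower (median 0.51, with 4 higher and 2 lower by total counts). TGFBI and ACTA2 were lower in both lines. They are also the 2 genes of this list nearest to LOXL1 in pattern. That ranking used these same values, so their likeness to LOXL1 is not independent support. DESeq2's Wald test called TGFBI as a shared change. Of the reported partners of LOXL2 and LOXL3, 2 of 4 measured in MDA-MB-231 were higher and 0 lower, and of 3 in SUM159 0 were higher and 1 lower, which became 1 higher and 0 lower with scaling by total counts. SNAI1, a repressor of E-cadherin that LOXL2 and LOXL3 are reported to stabilize, had 23 counts with DMSO and 118 after MBZ in MDA-MB-231 (2.62) and 430 and 446 counts in SUM159 (-0.26, or 0.04 with scaling by total counts). SNAI2 stood at 0.61 and 0.43, and STAT3 at -0.02 in MDA-MB-231 (0.25 with scaling by total counts) and -0.79 in SUM159.

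The libraries also differed in cell cycle genes and in fibroblast markers. Of 20 G2/M genes, 18 were lower and 0 higher in MDA-MB-231 (median level 171 CPM with DMSO and 84.7 CPM with MBZ), and all 20 were higher in SUM159 (18.4 CPM and 75.9 CPM). Of 8 fibroblast markers, which include COL1A1 and COL3A1, both measured in MDA-MB-231 were lower, and 4 of 5 measured in SUM159 were lower and 0 higher. With scaling by total counts, 13 of the G2/M genes and 1 of the 2 fibroblast markers were lower in MDA-MB-231, and 1 fibroblast marker was higher in SUM159. Their summed level was 17.4 CPM with DMSO and 10.3 CPM with MBZ in MDA-MB-231, and 312 and 82.5 CPM in SUM159. DCN and PDGFRA were at 0 in both MDA-MB-231 libraries, while in SUM159 DCN had 335 and 508 counts and PDGFRB 2235 and 281 counts. LOXL1 followed the summed fibroblast markers in being higher in SUM159 than in MDA-MB-231 and lower with MBZ in both lines. The part of these lists in the values of LOX and LOXL1 was not tested.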

How the data were processed

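The authors enriched mRNA, sequenced it as paired-end reads, mapped the reads to GRCh38 with STAR (version 2.5 per the submitters' processing notes) and counted them per gene with HTSeq 0.6.1 in union mode. The deposited table holds raw read counts, without normalization, for 1 library of each of the 4 groups. The annotation release and the strand setting are not given in the sources used here. Symbols were matched by Ensembl identifier for 58207 of 58735 rows, which held 99.5% to 99.9% of each library's counts. Coordinates and exon lengths are those of GENCODE release 44 on GRCh38, whose release may differ from the one used for counting.

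With edgeR 4.0.16 (R 4.3.3), a fold change was taken as the difference of log2 CPM, with TMM scaling over the 2 libraries of a line and a prior count of 0.125. The study's methods give no dispersion for 1 library in a group, so its edgeR test was not rerun. The shared change was estimated by the quasi-likelihood test of edgeR (line and treatment, filterByExpr, TMM over 4 libraries, Benjamini-Hochberg adjustment over all genes tested), which has 1 residual degree of freedom and a common BCV of 0.323. Nothing in the sources says how cultures were split, and lines are not replicate cultures. Intervals are 95% Clopper-Pearson intervals, and reads were amplified by PCR and carry no molecular identifiers, so they are not independent molecules. Where a library had 0 counts, the bound uses 3 counts in that library.

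The members and the 13 gene lists were chosen with earlier results of these data known, so that no count over them is independent support. Beside the members, the text names list genes with the highest or lowest change in a line or a change in the same direction in both, genes that overlap or neighbor a member, and the 3 genes nearest in pattern. Other list genes (CD44, ATP7A, PLOD2, SNAI2, TLL1, ADAMTS2, ADAMTS14, ELN, the identity markers, DCN and PDGFRA) were named for their known roles after values were seen, and some genes that the rule takes are not reported here. The functions were tested on simulated counts.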

Additional observations from a re-analysis of the deposited data

Results flagged for a closer look

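For the following genes and lists the change with MBZ lay on one side of 0 in MDA-MB-231 and on the other in SUM159, with counting intervals that left out 0 for the genes. With 1 library for each line and treatment, the difference between the lines was not tested. Among all genes measured in both lines, 20.0% had intervals on opposite sides of 0.

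LOX was the family member of this kind, at log2 fold changes of 0.38 for MDA-MB-231 and -0.77 for SUM159, and PLOD2, the telopeptide lysyl hydroxylase, stood at 0.51 and -0.78. Of the genes beside members, LOXL2-AS1 stood at -1.66 and 0.70, STOML1 at -0.38 and 1.07, R3HCC1 at -0.50 and 0.26, and SLC25A37 at -0.78 and 0.55. AOC3, a copper amine oxidase of another family, stood at 2.28 in MDA-MB-231 and -1.32 in SUM159.

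Among the lists read beside the family, the hypoxia-inducible genes had a median of -0.69 in MDA-MB-231 and 0.61 in SUM159, with CA9 at -3.49 and 2.0 and ANGPTL4 at -0.83 and 2.63. SNAI1 stood at 2.62 and -0.26, the second of which became 0.04 with scaling by total counts. The G2/M genes had a median of -1.03 in MDA-MB-231 and 2.38 in SUM159.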

How the results depend on the processing

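The 9 log2 fold changes of members kept their direction under total-count scaling, DESeq2 size factors, TMM over 4 libraries and a prior count of 2. Total counts brought LOXL2 in SUM159 nearest to 0, from -0.43 to -0.13, and set LOX at 0.64 in MDA-MB-231 and -0.47 in SUM159. The count of higher members in MDA-MB-231, 2, became 1 with DESeq2 size factors, a prior count of 2, a mean of at least 100 counts, a 2-fold threshold or the whole interval past 1.5-fold, all without LOXL3, and 3 with total counts. The count of lower members there, 2, became 1 with total counts or a 2-fold threshold, and the latter left 2 of 4 calls in all. In SUM159 the 2 lower members became 1 with total counts, a 2-fold threshold or the whole interval, which at the last 2 left 1 call in all, and the 0 higher members became 1 with total counts (LOXL3) or without the filter (LOXL4). The 0 members called in the shared test became 1 with DESeq2's Wald test (LOXL1, adjusted p 1.87e-06) and 2 in edgeR with every gene that had at least 1 count (LOXL1, adjusted p 8.44e-07, and LOXL4, 0.0185, among 298 of 32295 genes called, against 1 of 16100), and remained 0 with RLE scaling. In edgeR without the line in the model it was 0, and the estimate for LOX turned to 0.24 with an adjusted p of 1.00. The 4 members apart between DMSO libraries and the 3 libraries led by LOXL2 kept these counts under the alternatives run. No paired analysis was possible by replicate number, because all 4 libraries carry the same number, and the shared test is paired by line instead. The depth limits LOXL3 in MDA-MB-231 and LOXL4 in SUM159 most.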

Other observations

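Amine oxidases outside the family were read from a list of 7 genes. In MDA-MB-231 3 of 6 measured were at least 1.5-fold higher with MBZ and 1 lower (median log2 fold change 0.35), and in SUM159 2 were higher and 4 lower (median -0.83). With scaling by total counts, MDA-MB-231 had 3 higher and 0 lower, and SUM159 had 2 higher and 2 lower. SMOX, the spermine oxidase, was higher in both lines, with 490 counts with DMSO and 693 after MBZ in MDA-MB-231 (0.77) and 1050 and 2917 counts in SUM159 (1.16). AOC2 was also higher in both (1.10 and 1.34), and MAOA, a mitochondrial monoamine oxidase, was lower in both (-0.67 and -0.79). AOC1, the diamine oxidase, was lowest in SUM159, with 122 counts with DMSO and 13 with MBZ (-3.53).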
